A study of Mus musculus with 6 samples.

Results

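The 45 genes described here are transcripts of the cell division cycle, taken by gene name from the 19342 names of the deposited count table and grouped by the phase in which they act. The G1/S group holds 13 genes (D-type and E-type cyclins, their kinases, licensing factors and an inhibitor), the S group 11 (replication helicase subunits, the sliding clamp and nucleotide synthesis enzymes) and the G2/M group 21 (mitotic cyclins, kinases, checkpoint, kinetochore and spindle genes). All 45 were placed on the names in all 6 libraries and all 45 passed the filter of at least 1 CPM (read counts scaled to library size, here by TMM) in at least 1 library. The rule picks genes by name and not by a measured value, although the list was drawn up with earlier results of these data known.

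Mouse mesoderm progenitor cells of strain C57BL/6, from the embryonic tailbud per the series title, were sequenced as total RNA in 6 libraries, 1 for each condition, to see how growth factors act on their fate. Cells kept for 0 h and 96 h in culture had no growth factor. The others received recombinant BMP4 after 96 h, either for 5 h or 11 h alone, or together with recombinant FGF8 for 5 h or FGF4 for 11 h, and are labelled 101 h and 107 h in culture. The protocol, given in the same words for all 6 libraries, has the cells in medium with 10% FBS on feeder fibroblasts from wild-type embryos of the same strain, stopped from dividing by mitomycin C. No condition has a second library and no BMP4 library has an untreated partner of the same culture time, so every ratio below compares 2 libraries and has no replicate check.

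A cell enters the division cycle when D-type cyclins activate CDK4 and CDK6 and cyclin E activates CDK2, which together inactivate the retinoblastoma family and release E2F factors onto the promoters of G1/S and S phase genes. Late genes are held down in quiescent and early G1 cells by the DREAM complex, which sits at a promoter element called CHR, and are switched on in G2 by B-MYB and FOXM1, often together with NF-Y bound at CCAAT boxes. The inhibitor p27, product of Cdkn1b, restrains cyclin E and cyclin A kinases. Tailbud mesoderm progenitors are known as dividing cells that feed the elongating body axis.

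These promoter elements can be read in the RefSeq windows (GRCm38.p6, 250 bases before to 50 after each transcript start), which were found for 34 of the 45 genes, 36 windows in all. Both strands were searched for TTTGAA or TTTAAA (CHR), CCAAT, and TTTCCCGC, TTTCGCGC, TTTGCCGC or TTTGGCGC (E2F), and matches may overlap. A CHR match stood in 13 of 15 G2/M windows, 3 of 10 S windows and 2 of 11 G1/S windows, against 27.6% of all 32851 windows. CCAAT stood in 13 of 15 G2/M, 9 of 10 S and 4 of 11 G1/S windows, against 37.4% of all. An E2F match stood in 1 of 15 G2/M, 4 of 10 S and 4 of 11 G1/S windows, against 2.26% of all. CHR and CCAAT occurred together in 12 of 15 G2/M windows and in 10.7% of all windows. A match is a description of letters and not a bound site. The stretches below, all upstream of the RefSeq start and read 5′ to 3′ on the gene's strand, show the arrangement for 3 late genes, 2 early genes and Cdkn1b, the member that varied most between libraries, with the matches in capitals.
Plk1 (chr7:122159341-122159430, + strand): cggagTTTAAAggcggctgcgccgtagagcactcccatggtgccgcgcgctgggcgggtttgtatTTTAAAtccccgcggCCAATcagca
Cdc20 (chr4:118437344-118437401, - strand): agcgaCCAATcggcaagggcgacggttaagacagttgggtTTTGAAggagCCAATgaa
Mki67 (chr7:135716467-135716572, - strand): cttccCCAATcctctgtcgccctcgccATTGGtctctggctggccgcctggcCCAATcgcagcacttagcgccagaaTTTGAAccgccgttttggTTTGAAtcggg
Mcm6 (chr1:128359710-128359820, - strand): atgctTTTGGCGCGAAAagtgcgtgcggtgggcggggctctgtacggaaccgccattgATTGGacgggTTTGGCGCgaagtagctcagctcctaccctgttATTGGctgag
Cdc6 (chr11:98908008-98908025, + strand): ggagaGCGGGAAAtcgcc
Cdkn1b (chr6:134920277-134920396, + strand): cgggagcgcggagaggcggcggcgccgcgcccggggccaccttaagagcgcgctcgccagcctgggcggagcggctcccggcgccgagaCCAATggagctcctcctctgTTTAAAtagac
Plk1, Cdc20 and Mki67 carry CHR and CCAAT matches within these stretches. Mcm6 carries E2F and CCAAT matches and Cdc6 a lone E2F match, while the Cdkn1b stretch holds CCAAT and CHR letters without an E2F match.

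Before the results, the state of the libraries has to be given. Total counts ranged from 179196459 to 272743104. The summed level of 9 tailbud and presomitic markers (9 of 9 placed) was 406 CPM at 0 h and 21.2 CPM at 96 h. It was 359 and 356 CPM in the libraries labelled BMP4 5 h and BMP4 with FGF8 5 h, and 169 and 39.1 CPM in those labelled BMP4 11 h and BMP4 with FGF4 11 h. Fibroblast markers (9 of 10 placed) summed to 195 and 896 CPM at 0 h and 96 h, 289 and 255 CPM in the 5 h libraries without and with FGF8, and 553 and 1307 CPM in the 11 h libraries without and with FGF4. Endothelial markers (6 of 6) followed the same order at 7.63, 90.0, 7.29, 7.68, 39.7 and 127 CPM, lateral plate markers (5 of 5) at 18.2, 98.3, 18.4, 19.6, 57.9 and 89.8 CPM, and 2 of 7 red blood cell markers at 2.37, 115.6, 2.43, 4.21, 80.1 and 75.9 CPM. Macrophage markers (3 of 5) stayed between 1.70 and 5.50 CPM, with Ptprc at 0 in the 0 h and BMP4 5 h libraries. In both libraries labelled 5 h the tailbud, endothelial, lateral plate and red blood cell sums thus lay near the 0 h levels, although the labels give 101 h in culture. Fibroblast markers did not. In the library labelled BMP4 5 h, 4 of 9 were at least 2-fold and 8 of 9 at least 25% above 0 h, and Postn, a matrix gene, stood at 2.62 CPM at 0 h and at 20.2 and 12.3 CPM in the 5 h libraries without and with FGF8. A direction drawn from the 5 h libraries therefore rests on labels that these markers leave in doubt. The part of these markers' cell types in the differences of cell cycle genes was not tested.

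Counts of the 45 genes lay between 1071 and 83221 per gene and library. Mean levels were above 20 CPM except for Cdk6 (6.05 CPM) and Cdkn1b (16.5 CPM). Per kilobase of transcript (the annotated isoform with the longest coding sequence), mean levels over the 6 libraries ran from 0.525 CPM per kb for Cdk6 to 124 CPM per kb for Cdk4, the 2 kinase partners of D-type cyclins. S phase genes lay between 16.1 CPM per kb (Tyms) and 103 CPM per kb (Pcna), and G2/M genes between 7.63 CPM per kb (Cenpf) and 54.2 CPM per kb (Top2a). Across the 6 libraries the highest-to-lowest ratio of a member, taken on CPM + 0.5, was at most 1.72 (Cdkn1b). The median of this ratio was 1.22 for the 45 genes, 1.26 for all 13925 genes analysed and 1.20 for the 5910 genes with a mean of at least 20 CPM. The ratio was under 1.5 for 9 of 13 G1/S genes, for all 11 S genes and for all 21 G2/M genes. These made up 91.1% of the 45, beside 76.7% of all genes and 91.3% of those with a mean of at least 20 CPM. In bulk RNA a level cannot separate fewer cycling cells from less RNA in each.

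No member differed by 2-fold in any of the 6 comparisons. Of all genes analysed, 3.78% passed 2-fold upward and 2.31% downward at 96 h relative to 0 h. The shares were 2.13% and 3.22% for BMP4 5 h over 96 h, 1.94% and 0.302% for BMP4 11 h over 96 h, and 0.28% and 0.079% for BMP4 5 h over 0 h. For FGF8 added to BMP4 at 5 h they were 0.144% and 0.0287%, and for FGF4 added to BMP4 at 11 h they were 1.21% and 0.589%. Counts below use a second rule, a higher level at least 25% above the lower one with an exact 95% counting interval of the ratio that excludes 1. The plot of ratios to the 0 h library shows every member against both thresholds.

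**Figure D1:**
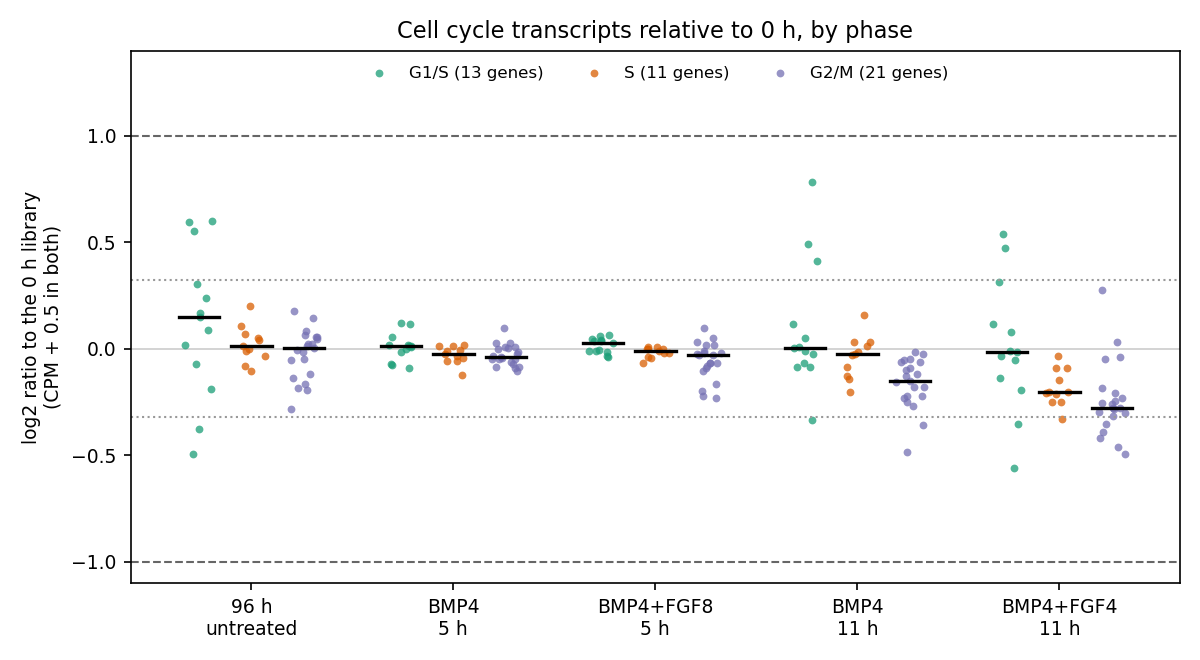
Log2 ratio of each of the 45 genes to its level in the 0 h library (y axis, CPM + 0.5 in both), for the other 5 libraries (x axis). Each dot is 1 gene, coloured by phase, black bars are phase medians, dotted lines mark the 25% rule and dashed lines 2-fold. No dot passes 2-fold and both 5 h libraries stay close to 0. With TMM sizes the G2/M median lies at -0.15 in the BMP4 11 h and -0.28 in the BMP4 with FGF4 library. The median of all genes and other scalings are not drawn.

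Among the 45 genes, G1 regulators had the widest differences. Between 0 h and 96 h without growth factor, Ccnd2, Ccnd3 and Cdkn1b were higher and Ccnd1 and Cdk6 lower by the 25% rule, 3 and 2 of 13 G1/S genes. By the same rule 13.3% of all genes were higher and 11.1% lower. The other 8 G1/S genes, all 11 S genes and all 21 G2/M genes lay inside it. Median log2 ratios were 0.15 for G1/S, 0.01 for S and 0.00 for G2/M genes, beside 0.00 for all genes.

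Ccnd1 (chromosome 7, 144929931 to 144939925, GRCm38), the cyclin D1 gene and a common target of mitogen signals, stood at 172 CPM at 0 h and 132 CPM at 96 h. It was at 170 and 167 CPM in the BMP4 and BMP4 with FGF8 libraries of 5 h, and at 136 and 116 CPM in the BMP4 and BMP4 with FGF4 libraries of 11 h. The 0 h library and both 5 h libraries were therefore high and the other 3 low, with no overlap. Tailbud, fibroblast and endothelial marker sums split the libraries at the same place, so the split is not particular to G1 regulators. The share of all genes with this split of 3 libraries against 3 was not counted. Leaving aside the untreated libraries, both 11 h libraries were below both 5 h libraries for 34.6% of all genes and above them for 26.2%. Ccnd2 (chromosome 6, 127125162 to 127152193), which encodes cyclin D2, had the mirror image of Ccnd1. Its values were 181 CPM at 0 h, 276 CPM at 96 h, 197 and 186 CPM at 5 h without and with FGF8, and 255 and 252 CPM at 11 h without and with FGF4. The 96 h over 0 h ratio was 0.770 for Ccnd1 (counting interval 0.759 to 0.781) and 1.52 for Ccnd2 (1.501 to 1.538).

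Ccnd3 (chromosome 17, 47505051 to 47599691), the cyclin D3 gene, followed Ccnd2. It was at 66.1 CPM at 0 h, 100.2 CPM at 96 h, 67.0 and 68.9 CPM at 5 h, and 88.3 and 82.3 CPM at 11 h, without and with FGF in each case. In CPM, the ratio of Ccnd2 to Ccnd1 was 1.06 at 0 h, 1.16 and 1.11 in the 5 h libraries, and 2.08, 1.88 and 2.17 at 96 h and in the 11 h libraries without and with FGF4. Per transcript length, Ccnd1 made up 43.1% of D-type cyclin transcripts at 0 h and 27.7% at 96 h, while Ccnd3 went from 30.0% to 38.1% and Ccnd2 from 26.9% to 34.2%. Ccnd3 was thus the most abundant D-type cyclin per length at 96 h, although Ccnd2 had the highest CPM.

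Cdkn1b (chromosome 6, 134920401 to 134925513), the p27 gene, had the widest range of the 45. It was at 12.8 CPM at 0 h, 19.0 CPM at 96 h, 12.9 and 13.03 CPM in both 5 h libraries, 22.4 CPM with BMP4 for 11 h and 18.8 CPM with BMP4 and FGF4 for 11 h. The 3 low libraries (0 h and both of 5 h) lay between 12.8 and 13.03 CPM, below the other 3. Over all genes this split was not counted. The placement probability of Cdkn1b, the chance that a count belongs to this name, was 0.893 in the BMP4 with FGF4 column. It was at least 0.973 in the others, and Cdkn1b leaves the data when 0.99 is required. Cdk6 (chromosome 5, 3341485 to 3531008), a D-type cyclin kinase, was lowest at 96 h with 4.22 CPM. The other 5 libraries lay between 6.10 and 6.71 CPM, so that for Cdk6 the 96 h library stood alone.

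**Figure D2:**
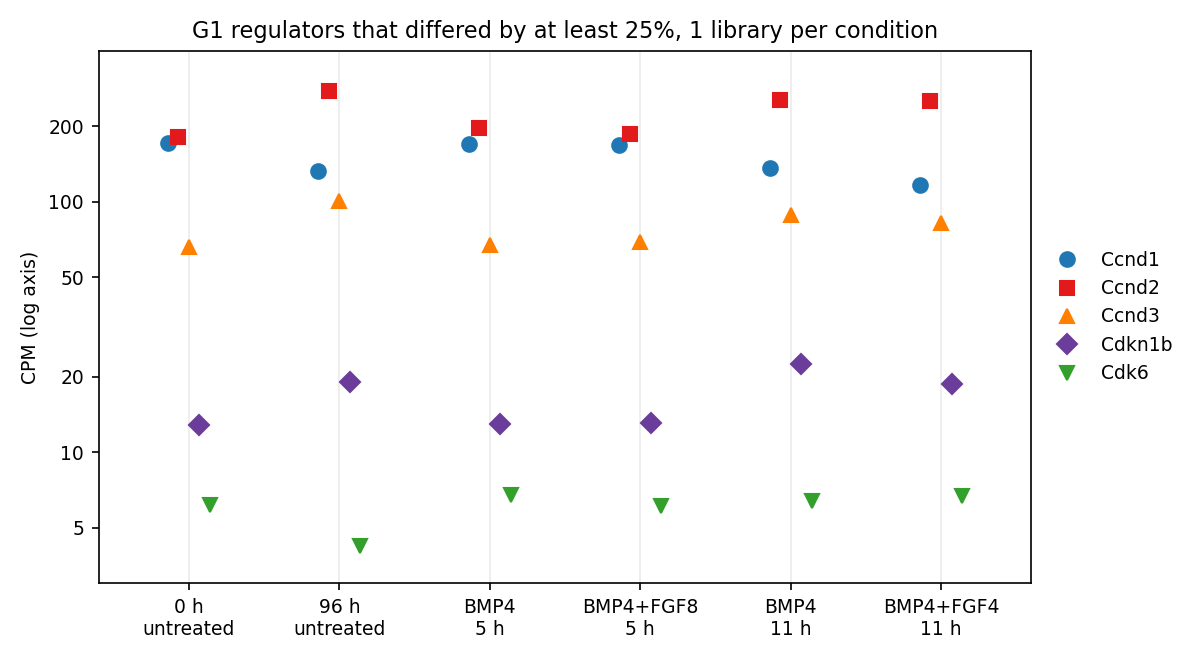
CPM (y axis, log scale) of the 5 G1/S genes that passed the 25% rule between 0 h and 96 h, in each of the 6 libraries (x axis). Symbols are single libraries, shifted sideways within a library to keep them apart. Ccnd1 is high where Ccnd2, Ccnd3 and Cdkn1b are low (0 h and both 5 h libraries), and Cdk6 is lowest at 96 h.

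The remaining G1/S genes moved less. Ccne1, which encodes cyclin E1, was at 50.02 CPM at 0 h and 62.0 CPM at 96 h, then 50.04 and 51.4 CPM at 5 h and 54.3 and 48.8 CPM at 11 h. The 96 h library was its highest, and the 96 h over 0 h log2 ratio of 0.31 fell just inside the rule. E2f1, an activator of S phase genes, was the flattest of the 45 with 28.4 and 28.8 CPM in the untreated libraries, 29.6 and 29.8 CPM at 5 h and 28.3 and 28.2 CPM at 11 h. Cdk2, the kinase partner of cyclins E and A, stayed between 43.5 CPM (BMP4 with FGF4) and 48.0 CPM (0 h). Ccne2, Cdc25a, Cdc6 and Cdt1 also had their highest value at 96 h and Cdk4 at 0 h, with highest-to-lowest ratios between 1.11 and 1.28.

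The library labelled BMP4 5 h, set against 96 h untreated cells, gave the same 5 G1/S genes with opposite signs. Ccnd1 (log2 ratio 0.36) and Cdk6 (0.61) were higher and Ccnd2 (-0.48), Ccnd3 (-0.58) and Cdkn1b (-0.54) lower, 2 and 3 of 13 genes, while 11.2% of all genes were higher and 11.8% lower. No S or G2/M gene passed. The comparison shares its 96 h library with the one against 0 h, so the mirrored signs are not a second observation. With the label in doubt, the difference cannot be assigned to BMP4. Set against 0 h, the same library held all 45 genes inside the 25% rule, with log2 ratios between -0.12 (Tyms) and 0.12 (Ccnd2). In that comparison 2.43% of all genes were higher and 0.991% lower.

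BMP4 for 11 h against 96 h placed Cdk6 higher (log2 ratio 0.55, 6.39 against 4.22 CPM) and Top2a lower (-0.35, 242 against 309 CPM), 1 gene each way. The background was 12.3% of genes higher and 7.27% lower. Cdkn1b (0.23) and Ccnd2 (-0.11) stayed near their 96 h levels. Most members were slightly lower. The log2 ratio was below 0 for 9 of 13 G1/S, 8 of 11 S and 20 of 21 G2/M genes, with medians of -0.11, -0.06 and -0.11 beside -0.02 over all genes, where 7554 of 13925 were below 0. Bub1, a spindle checkpoint kinase, was the G2/M exception at 0.02. These medians were negative under all 3 scalings tried. With total counts the median of all genes was itself -0.099, and 67.1% of all genes were below 0. Under that scaling Cdc6 (-0.34) joined Top2a (-0.43) among the lower genes.

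S phase genes were the steadiest group. Mcm2 and Mcm6, subunits of the hexameric helicase that opens the replication fork, ranged from 148 to 162 CPM and from 175 to 194 CPM over the 6 libraries. Pcna (chromosome 2, 132249162 to 132253314), the sliding clamp of DNA polymerases, was at 157 and 163 CPM in the untreated libraries, 151 and 157 CPM at 5 h without and with FGF8, 175 CPM with BMP4 for 11 h and 132 CPM with BMP4 and FGF4 for 11 h. The 11 h libraries thus held both its highest and its lowest value. Tyms, thymidylate synthase, was at 55.0 and 53.7 CPM untreated, 50.5 and 54.9 CPM at 5 h, and 47.8 and 43.7 CPM at 11 h. Rrm1, the large subunit of ribonucleotide reductase, was at 161 and 169 CPM untreated, 158 and 154 CPM at 5 h, and 146 and 139 CPM at 11 h.

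Gmnn, the geminin gene that blocks a second round of licensing, was at 39.3 and 37.2 CPM untreated, 38.1 and 39.3 CPM at 5 h and 37.0 and 32.9 CPM at 11 h. Mcm4 was highest at 96 h with 177 CPM, while its other 5 libraries lay between 149.6 and 157.3 CPM. Mcm3, Mcm5, Mcm7 and Rrm2 had highest-to-lowest ratios between 1.15 and 1.18. The BMP4 with FGF4 library was the lowest of the 6 for 10 of the 11 S genes with TMM sizes, where it was lowest for 34.1% of all genes, and for 4 of 11 with total counts, against 16.8% of all genes.

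Of the G2/M genes, Ccnb1, the cyclin B1 gene that drives entry into mitosis with CDK1, was at 106 and 97.9 CPM in the untreated libraries at 0 h and 96 h. It was at 100.1 and 104 CPM at 5 h without and with FGF8, and 90.8 and 76.9 CPM at 11 h without and with FGF4. Plk1, the polo-like kinase of mitotic entry and exit, was at 81.2 and 78.6 CPM untreated, 78.5 and 77.5 CPM at 5 h, and 69.1 and 60.7 CPM at 11 h. Aurka, the kinase of centrosome maturation, was at 65.0 and 59.0 CPM untreated, 62.2 and 62.0 CPM at 5 h, and 54.6 and 46.1 CPM at 11 h. For each of these 3 genes both 11 h libraries were below all other libraries, and the one with FGF4 was the lower. These 3 are named as among the 5 G2/M genes with the widest ranges over the same libraries. The share of all genes with this order was not counted.

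Top2a (chromosome 11, 98992943 to 99024189), the topoisomerase that untangles sister chromosomes, was at 310.2 and 309 CPM untreated and 301 and 276 CPM at 5 h. It was at 242 CPM with BMP4 and 259 CPM with BMP4 and FGF4 for 11 h, its 2 lowest libraries. Cenpf, a large kinetochore protein gene, was at 97.7 and 80.1 CPM untreated, 98.3 and 83.8 CPM at 5 h, and 69.7 and 80.2 CPM at 11 h. Foxm1, the factor that activates many late genes, was the flattest G2/M gene, between 64.6 and 70.6 CPM, and Cdc25c, an activating phosphatase of CDK1, lay between 24.3 and 28.3 CPM.

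Mki67 (chromosome 7, 135689784 to 135716361), whose product Ki-67 is the usual marker of cycling cells, departed from the other late genes. It was at 198 and 218 CPM in the untreated libraries, 192 CPM with BMP4 for 5 h, 168 CPM with BMP4 and FGF8, 190 CPM with BMP4 for 11 h, and 240 CPM with BMP4 and FGF4. Its highest library was thus the one in which 16 of the 21 G2/M genes were lowest with TMM sizes (34.1% of all genes), or 9 of 21 with total counts (16.8% of all genes). Cenpe, a kinetochore motor gene, was the other G2/M gene with its highest value there, 65.6 CPM against 55.8 to 64.1 CPM elsewhere. The map of all members shows the contrast.

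**Figure D3:**
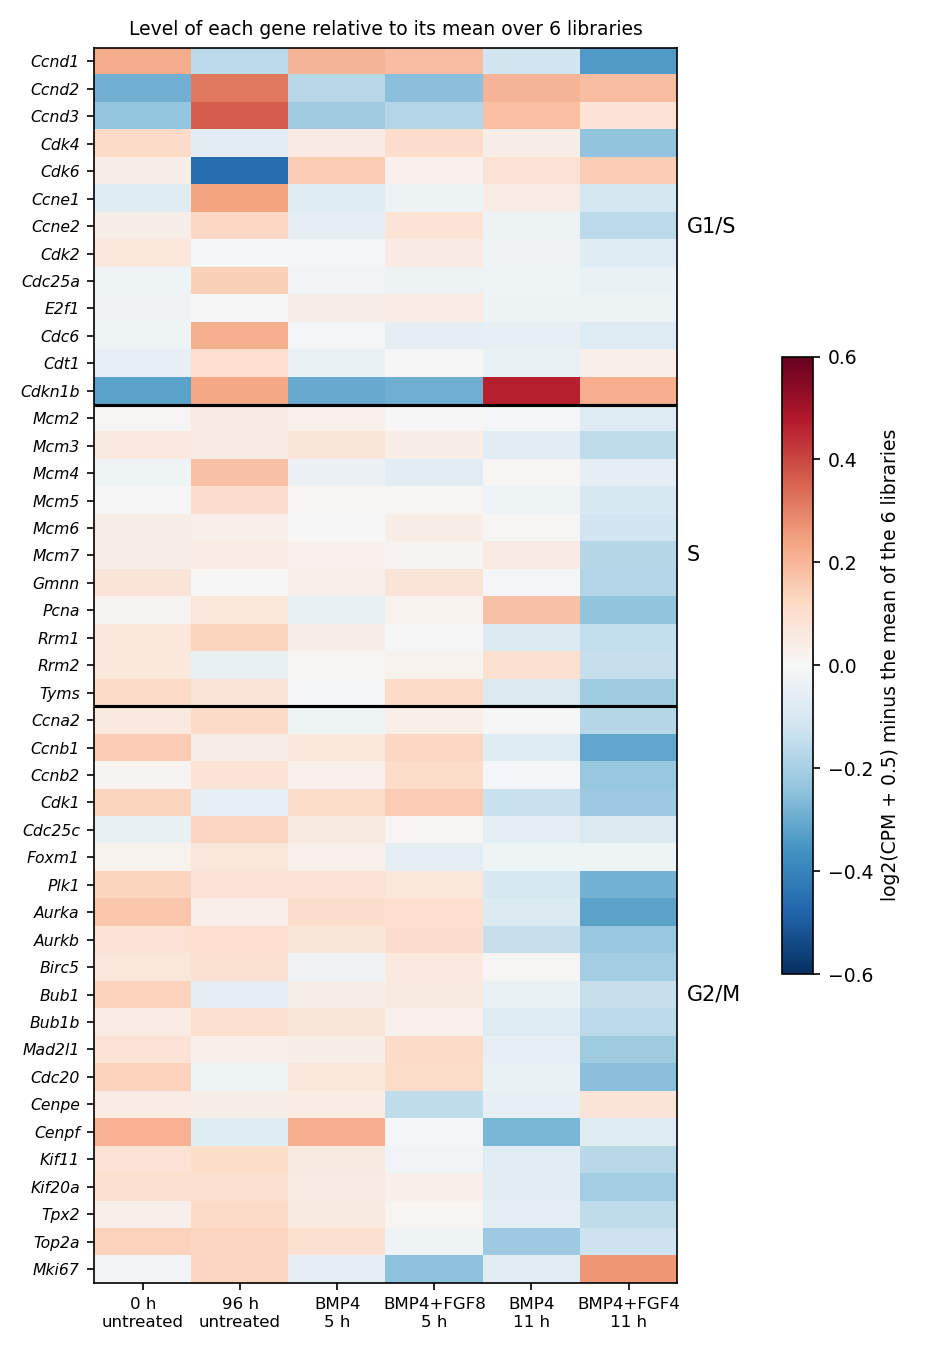
Each of the 45 genes (rows, by phase) in each of the 6 libraries (columns), as log2(CPM + 0.5) minus the gene's mean over the 6 libraries; red is above and blue below that mean. With TMM sizes the BMP4 with FGF4 column is blue for most S and G2/M genes and red for Mki67, and the strongest colours belong to Ccnd1, Ccnd2, Ccnd3, Cdk6 and Cdkn1b.

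FGF8, an FGF ligand of the tailbud, added to BMP4 for 5 h left no member past the 25% rule, where 1.44% of all genes were higher and 0.883% lower. Phase medians were 0.01 for G1/S, 0.00 for S and -0.02 for G2/M genes, beside 0.01 for all genes. The lowest members were Cenpf (-0.23), Cenpe (-0.20) and Mki67 (-0.19), and the highest Ccne2 (0.13). FGF4 added to BMP4 for 11 h left Mki67 higher (log2 ratio 0.33, 240 against 190 CPM, ratio interval 1.24 to 1.28) and Pcna lower (-0.41, 132 against 175 CPM, 0.740 to 0.765), where 9.85% of all genes were higher and 9.69% lower. With plain total counts in place of TMM sizes no member was lower by the rule (Pcna at -0.26), and Mki67 (0.48) and Cenpf (0.34) were higher.

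Phase medians with FGF4 were -0.05 for G1/S, -0.12 for S and -0.10 for G2/M genes, beside -0.03 for all genes, and 39 of 45 members were below 0, as were 55.3% of all genes. With total counts these medians turned to 0.09, 0.02 and 0.04, and 17 of 45 members were below 0, against 29.8% of all genes. That scaling moved the median of all genes by 0.14, from -0.03 to 0.11, so all 3 phase medians lay below the all-gene median under both.

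Transcript length moved with both FGF ratios. For FGF8 the median log2 ratio of all genes was 0.04 for transcripts below 1 kb, 0.05 at 1 to 2 kb and -0.11 above 8 kb. For FGF4 it ran the other way, from -0.17 below 1 kb and -0.10 at 1 to 2 kb to 0.17 above 8 kb. Mki67 (10.1 kb), Cenpf (11.1 kb) and Cenpe (7.91 kb) are long and Pcna (1.52 kb) short. Mad2l1 (7.56 kb by the isoform taken) is also counted as long but went against the trend, at 0.08 with FGF8 and -0.17 with FGF4. Lengths are those of 1 annotated isoform per gene, and the isoforms these cells express were not measured. The length of Mad2l1 used here may thus not apply. After the median of genes of like length was subtracted, an alternative chosen after seeing the data, Mki67 stood at 0.17 with FGF4 and -0.08 with FGF8, Cenpf at 0.04 and -0.12, and Cenpe at -0.03 and -0.09. Pcna stood at -0.31 with FGF4, and Mad2l1, by its annotated length, at -0.27 with FGF4 and 0.16 with FGF8. No member then passed the 25% rule with FGF4.

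**Figure D4:**
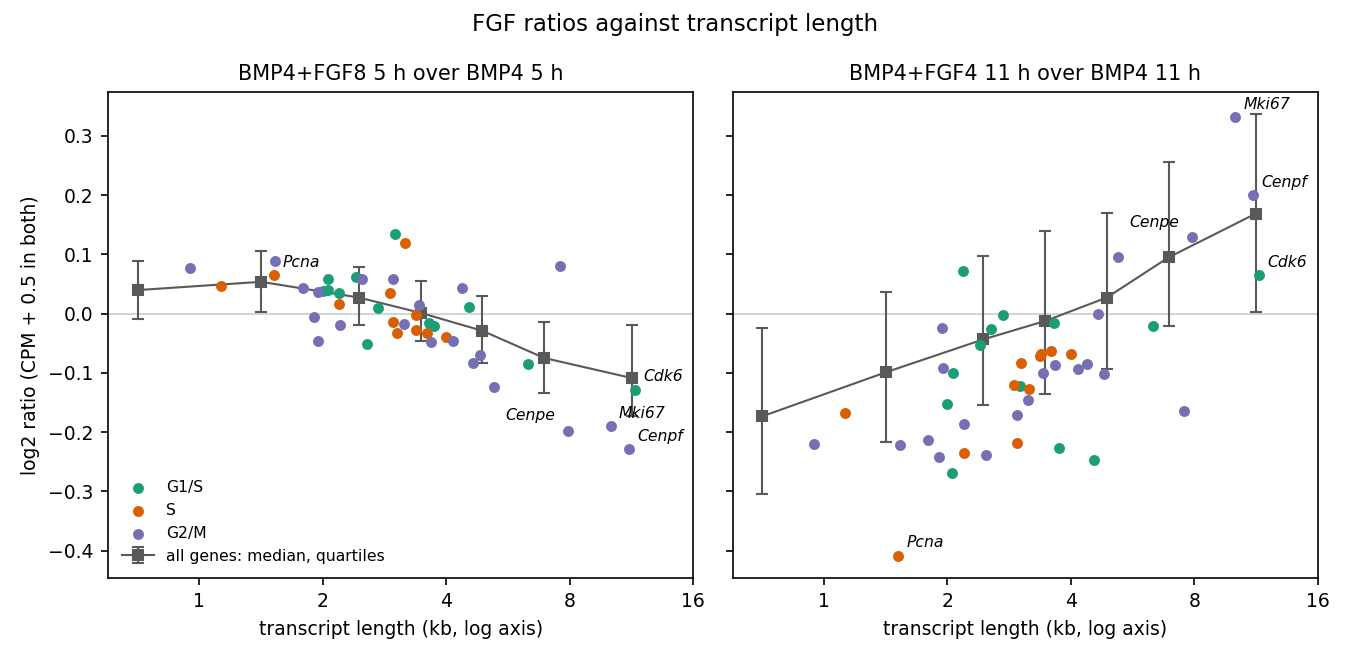
Log2 ratio with FGF added (y axis, CPM + 0.5 in both libraries) against transcript length in kb (x axis, log scale), for FGF8 at 5 h (left) and FGF4 at 11 h (right). Grey squares are medians of all genes in 7 length bins with quartile bars, drawn at the middle of each bin (the outer bins, below 1 kb and above 8 kb, at a nominal middle), and coloured dots are the 45 genes by phase. The grey line falls with length on the left from the bin of 1 to 2 kb on, and rises on the right. Mki67, Cenpf and Cenpe follow its sign at their length on both sides. Mad2l1 (7.56 kb by its annotated isoform, which may not be the one expressed) has the opposite sign on both.

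Only the growth factor times 5 h and 11 h have 2 libraries each. These were compared with edgeR's quasi-likelihood test over 13925 genes with Benjamini-Hochberg adjustment. The libraries of one time differ in the added FGF, so their spread is not that of replicates. No member passed an adjusted p of 0.05, where 2.16% of all genes were higher at 11 h and 0.294% lower. At an unadjusted p of 0.05, 3 members were higher and 6 lower, beside 1872 higher and 1724 lower of all genes. The lowest adjusted values by edgeR were 0.051 for Cdkn1b (log2 difference 0.67), 0.078 for Ccnd2 (0.40), 0.085 for Ccnd3 (0.33), 0.090 for Cdk1 (-0.31) and 0.096 for Ccnd1 (-0.42). DESeq2 called Cdkn1b, Ccnd2 and Ccnd3 higher and Ccnd1, Cdk1 and Aurkb lower, where it called 9.72% of all genes higher and 4.73% lower. With added FGF as a second term, edgeR called Cdkn1b higher (adjusted p = 0.018), in a fit that called 5.47% of all genes higher and 2.23% lower.

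The edgeR count rested on single libraries. Without the BMP4 11 h library, where the lone 11 h library is assumed to vary like the 5 h ones, 4 members were higher and 24 lower, beside 20.7% and 25.1% of all genes in the same fit. Without the BMP4 with FGF4 library 3 were higher and 5 lower, beside 15.4% and 8.83%. Without either 5 h library no member passed, where at most 0.151% of all genes were higher and 0% lower. In levels, both 11 h libraries lay below both 5 h libraries for 16 of 21 G2/M genes, 6 of 11 S genes and 4 of 13 G1/S genes, a pattern that 34.6% of all genes showed. The opposite order held for Ccnd2, Ccnd3 and Cdkn1b alone among the 45, and for 26.2% of all genes. The 5 G2/M genes that overlapped were Ccna2, Foxm1, Birc5, Cenpe and Mki67. With total counts the lower counts became 18 of 21, 9 of 11 and 5 of 13, and the share of all genes 38%. Tailbud markers (356 to 359 CPM at 5 h, 39.1 to 169 CPM at 11 h) and fibroblast markers (255 to 289 CPM and 553 to 1307 CPM) separated the same libraries, and their part was not tested.

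Of 135 further cell cycle genes in 5 lists, 131 were analysed (Cdkn1a and Melk are among those not analysed here). Past 2-fold there was 1 gene at 96 h over 0 h, Cdc25b, an activating phosphatase of cyclin-dependent kinases. It was at 11.8 CPM at 0 h and 25.2 CPM at 96 h, 13.3 and 13.4 CPM in both 5 h libraries, and 18.5 and 19.7 CPM at 11 h without and with FGF4. In BMP4 11 h over 96 h it was Cdkn2a, which encodes the inhibitors p16 and p19ARF, at 0.633 against 0.037 CPM. Its other levels were 0.055 CPM at 0 h, 0.465 and 0.592 CPM at 5 h without and with FGF8, and 1.37 CPM with FGF4. Every library with added factors lay above both untreated ones, but only the columns with added factors had to be placed on the names. At these low levels a misplaced row cannot be told apart from a difference in expression. The other 4 comparisons had none on the scale of CPM + 0.5. On plain CPM, Cdkn2a also differed 12.5-fold between the library labelled BMP4 5 h and 96 h, 8.41-fold between it and 0 h, and 2.16-fold with FGF4, at these low levels.

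By the 25% rule, 40 of 40 further replication genes lay inside the threshold at 96 h over 0 h, in all 3 comparisons of a BMP4 library with an untreated one and with FGF8, and 39 of 40 with FGF4. Of 55 further mitosis genes, 52 lay inside it at 96 h over 0 h, 51 at BMP4 11 h over 96 h and 52 with FGF4. Of all 13925 genes, 10530 lay inside it at 96 h over 0 h, 13602 with FGF8 and 11204 with FGF4. For BMP4 11 h over 96 h the number was 11205. For BMP4 5 h it was 10724 over 96 h and 13449 over 0 h. Medians in BMP4 11 h over 96 h were -0.11 for the further replication and -0.14 for the further mitosis genes, beside -0.02 for all genes. In the comparison of 11 h with 5 h, 2.16% of all genes were higher and 0.294% lower at an adjusted p of 0.05 by edgeR. Of the 131 genes, 2 passed, both higher at 11 h. These were Cdc25b (log2 difference 0.52, adjusted p = 0.040) and Myc (0.72, adjusted p = 0.023), a growth and G1/S regulator named here after its values were seen. Myc was at 29.8 and 45.4 CPM untreated, 28.5 and 28.7 CPM at 5 h and 49.1 and 45.1 CPM at 11 h, low where Ccnd2, Ccnd3 and Cdkn1b were low. Mycn, of the same list and also named after its values were seen, had the opposite order. It was at 92.1 and 56.7 CPM untreated, 84.8 and 85.7 CPM at 5 h, and 61.5 and 49.6 CPM at 11 h. Its log2 difference between 11 h and 5 h was -0.62 (adjusted p = 0.066 by edgeR).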

How the data were processed

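A stranded total RNA kit was used, per the labels' protocols. The authors deposited raw read counts per gene. The tools and build in the submitters' processing notes, listed with no roles, are STAR 2.4.0e, cutadapt, DESeq, HTSeq and mm10, and the strand and pair settings of the counting are not given there. Between 65.4% and 70.9% of values from 1 to 20 are even, so counting intervals may be too narrow. They cover counting error only.

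The columns of the 4 growth factor libraries hold 19415 to 19826 values for 19342 names and are out of register. Names were sorted without regard to case and each column was placed in order by a pair hidden Markov model on both untreated columns. A gene was kept at a probability of at least 0.8 in each column if direct alignment within each time paired the same rows, which left 17503 genes and 98.9% to 99.4% of counts. Placement seeks like levels, so it favours values near the untreated range. On simulated columns at least 99.9% of kept expressed genes were right. Those columns were drawn mostly from levels between both untreated columns, as the placement assumes, so the figure need not hold for the real columns.

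Counts were scaled by TMM (edgeR 4.0.16, R 4.3.3). Genes with at least 1 CPM in 1 library were analysed (13925). Ratios use CPM + 0.5, which understates changes of low genes, and exact (Clopper-Pearson) 95% intervals. The time contrast used edgeR's quasi-likelihood test, with DESeq2 1.42.0 as an alternative. Lengths and positions are from GENCODE for GRCm38, promoters from RefSeq. Of the 45 genes, 6 have a pseudogene named for them in RefSeq (Ccnd3, Pcna, Tyms, Ccnb1, Ccnb2 and Aurkb), whose reads may be shared.

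Members and lists were chosen with earlier results of these data known. Named genes are the 5 widest and 2 narrowest ranges per phase, members past 2-fold, and Mki67, Top2a, Pcna, Ccnb1, Ccnd1, Ccnd2, Ccne1 and Cdkn1b. Other cell cycle genes are named past 2-fold. The probability of 0.8 and 2 alternatives (0.99, and subtraction of the median of genes of like length) were chosen after seeing the data.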

Additional observations from a re-analysis of the deposited data

How the results depend on the processing

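No member passed 2-fold under any alternative. Of the values of members past the 25% rule, 121 kept their direction and side of the threshold and 3 kept only the direction. These were Pcna with FGF4 under total counts (-0.26) and after subtraction of the median of genes of like length (-0.31), and Mki67 with FGF4 after that subtraction (0.17). Total counts gave 2 lower members for BMP4 11 h over 96 h (Top2a and Cdc6), and 2 higher (Mki67 and Cenpf) and 0 lower for FGF4, whose phase medians turned from negative to positive. Subtracting the length median left 0 higher and 0 lower for FGF4. Phase medians moved by at least 0.05 on the log2 scale in 8 cases and by less in 154. In the comparison of 11 h with 5 h, 1 member (Cdkn1b) was higher with no filter, with added FGF as a second term, and with placement on the 96 h or the 0 h column alone, and DESeq2 gave 3 higher and 3 lower. Leaving out 1 library gave 0 to 4 higher and 0 to 24 lower. The cause was not tested. At a placement probability of 0.99, Cdc20 and Cdkn1b dropped out. No paired analysis was possible because each condition has 1 library, and the term for added FGF spans FGF8 and FGF4 and is no replicate number. Depth does not limit these genes, which have at least 1071 counts each.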
